A study of Mus musculus with 37 samples.

Results

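Cxcl12, its receptors Cxcr4 and Ackr3, and the related chemokine Cxcl14 were followed across 9 components of the developing mouse kidney. The 4 genes were taken by name from the 15709 genes tested, with earlier results of these data known. All 7 of their probe sets, of 45101 on the Affymetrix array, passed the filter on low signals. Each of the 37 samples was a pool of wild-type CD-1 embryos of unknown sex, with no treatment named. At embryonic day E11.5 there were 8 arrays of the metanephric mesenchyme, which forms nephrons and stroma, and 4 of the ureteric bud, which becomes the collecting system. Day E12.5 gave 5 arrays of the renal vesicle, where the nephron first becomes epithelial. The remaining 20 arrays came from day E15.5. Among them 4 held the S-shaped body, which follows the vesicle, 4 the renal corpuscle, which contains the glomerulus, and 2 the proximal tubule. The stroma of the medulla, its interstitium, gave 4 arrays of this day, its collecting duct 3, and the tip of the ureteric tree 3. About 50 laser-captured sections from 5 kidneys made a pool, and the RNA was amplified in 2 rounds, as the labels give it. The titles of all 4 bud arrays and of 4 mesenchyme arrays name dissection or collagenase instead, 3 mesenchyme titles name laser capture, and the eighth names neither.

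Cxcl12 is a secreted chemokine that guides migrating cells and growing vessels. It signals through Cxcr4, a G protein-coupled receptor, and is also bound by Ackr3, an atypical receptor that couples to arrestins and removes Cxcl12 from the tissue around it. In the kidney this axis is known for its part in forming the blood vessels, above all the capillaries of the glomerulus. Cxcl14 is a CXC chemokine of epithelia whose signalling receptor is not settled.

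The 100 bases upstream of the annotated starts of Cxcl12 and its receptors are shown to give the axis its place in the genome, from RefSeq on GRCm38.p6. Capitals mark matches to the TATA motif, which reads TATAAA, and to the GC box, which reads GGGCGG, on either strand. Cxcl12 starts on the plus strand of chromosome 6 (chr6:117168435-117168534 for the window), Cxcr4 on the minus strand of chromosome 1 (chr1:128592300-128592399) and Ackr3 on the plus strand of chromosome 1 (chr1:90203880-90203979). The gene Cxcl14 spans 56288643 to 56296811 on the minus strand of chromosome 13. The start used for its promoter entry lies inside this span, so its bases are not shown as upstream sequence.
Cxcl12: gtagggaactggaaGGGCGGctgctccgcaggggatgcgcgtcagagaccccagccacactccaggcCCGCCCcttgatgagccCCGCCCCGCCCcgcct
Cxcr4: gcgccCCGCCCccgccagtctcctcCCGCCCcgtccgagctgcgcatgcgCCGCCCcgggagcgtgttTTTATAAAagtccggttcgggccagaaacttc
Ackr3: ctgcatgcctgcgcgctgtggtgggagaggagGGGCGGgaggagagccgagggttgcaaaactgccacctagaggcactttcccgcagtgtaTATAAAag
The Cxcl12 window holds 4 GC boxes and no TATA match. The Cxcr4 window holds 3 GC boxes and 2 overlapping TATA matches, one on each strand, and the Ackr3 window holds 1 of each motif. The GC content was 73% for Cxcl12, 69% for Cxcr4 and 60% for Ackr3. Of 32851 upstream windows of this length, 5.56% hold TATAAA and 24.7% hold GGGCGG. These matches are a description of the letters only.

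Levels are log2 of the signal plus an offset, after quantile normalization, and a level is compared only within a probe set. The pooled median of all values, 7.89, serves as a guide to weak signals. Ackr3 and the main Cxcl12 probe set lay above it in all 37 arrays, Cxcr4 in 33 and the main Cxcl14 probe set in 22. Most labels were matched by their markers. The tip gene Ret, the receptor of the bud's growth signal, was at 14.42 or more in all 3 ureteric tips and at 8.37 to 10.04 in the collecting duct, and the phosphate transporter gene Slc34a1 was at 14.02 and 14.16 in the proximal tubule. The water channel gene Aqp2, which defines the collecting duct, was only at 9.08 to 10.25 there. In 2 libraries the podocyte markers lay nearer to another label. The mean of 6 podocyte markers was 14.43 in one labelled S-shaped body replicate 3, while the rest of that label spanned 10.92 to 11.38. This library also had the proximal tubule gene Slc34a1 at 12.82, above every corpuscle (the highest at 11.01). It was therefore not like a corpuscle in all markers. The podocyte mean was 10.57 in one labelled renal corpuscle replicate 4, while the rest of that label spanned 13.82 to 14.84. Tests of the 4 genes in comparisons that include these 2 libraries are given with and without them for the main probe sets, and tests on further probe sets use all arrays. Arrays measure bulk tissue, so fewer cells of a type and less RNA per cell cannot be told apart. Nothing says that pools came from separate litters, so p-values measure only the spread between these pools.

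Levels of all 4 genes differed between the components by limma's moderated F-test, as did those of 49.9% of all genes. The adjusted p was 3.99e-05 for Cxcl12, 0.0244 for Cxcr4, 6.55e-06 for Ackr3 and 8.13e-06 for Cxcl14. The adjusted p without the 2 libraries was 4.74e-06, 0.00152, 9.27e-08 and 1.01e-07 in the same order, and 53.9% of genes then differed. The Cxcr4 result was lost without collecting duct replicate 2 (adjusted p = 0.105) or replicate 3 (adjusted p = 0.092). In pairwise tests a gene was called at an adjusted p under 0.05 and a log2 difference of at least 1. Some counts at an unadjusted p under 0.05 are also given, without the share of all genes at that threshold. Over 15 comparisons Cxcl12 was called in 4, Cxcr4 in 1, Ackr3 in 5 and Cxcl14 in 5.

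**Figure D1:**
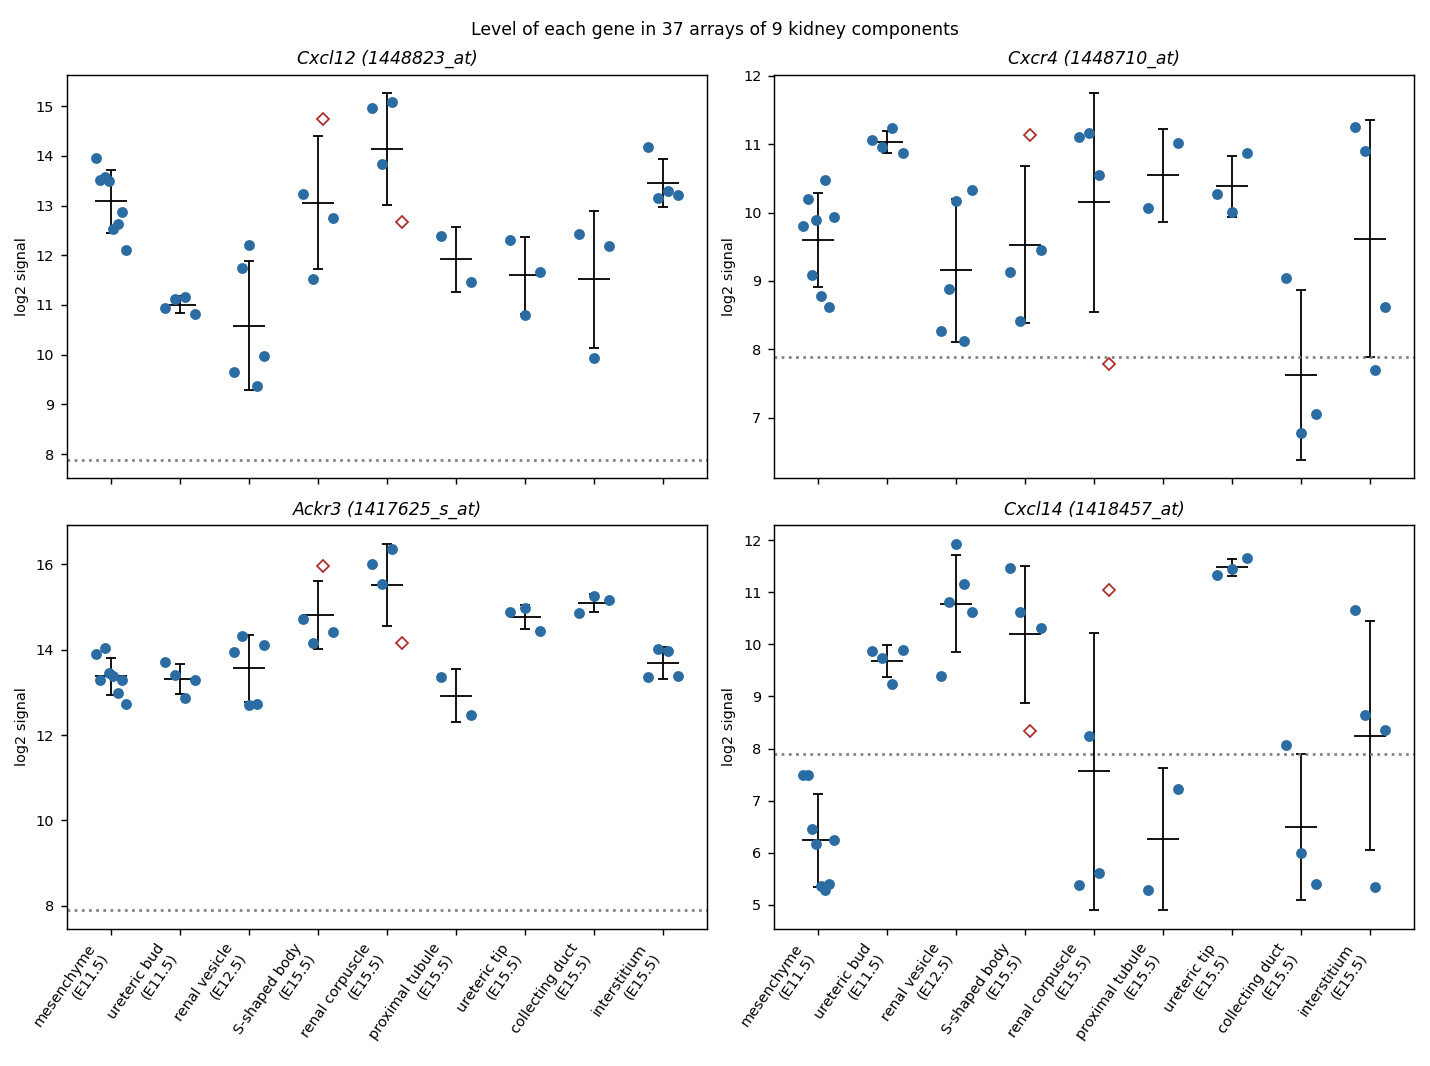
Log2 signal of the main probe set of each gene (vertical axis) in the 37 arrays, by component (horizontal axis). Points are arrays, bars the mean and SD, the dotted line the pooled median of 7.89, and open diamonds the 2 libraries whose markers went against their labels. Cxcl12 peaks in the renal corpuscle at a mean of 14.14, Cxcl14 in the ureteric tip at 11.47, and Cxcr4 is lowest in the collecting duct at 7.63.

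On its main probe set (1448823_at) Cxcl12, the ligand, was high in mesenchyme, interstitium and corpuscle and low in the renal vesicle and ureteric bud. The mesenchyme arrays ranged from 12.11 to 13.96 with a median of 13.19. The ureteric bud arrays were at 10.94, 11.12, 11.16 and 10.81, and the renal vesicle arrays at 9.64, 11.74, 12.20, 9.36 and 9.97. All bud arrays lay below all mesenchyme arrays, whereas vesicle replicate 3 lay just inside the mesenchyme range. Vesicle replicates 2 and 3, the highest for Cxcl12, also had the highest means of the interstitial and ureteric markers. The mean of 8 interstitium markers was 11.17 and 12.21 there, against 9.95 to 10.13 in the other vesicles, and the mean of 8 ureteric markers was 11.15 and 10.59, against 8.53 to 9.39. Single members of these lists differed. Ret and the interstitium gene Pdgfra were highest in replicates 2 and 3. Foxd1, also an interstitium marker, was highest in replicate 1, at 12.54 against 12.51 and 11.87 in replicates 2 and 3. The ureteric gene Wnt11 was lower in replicate 3, at 9.33, than in replicate 1, at 10.4. Other markers followed Cxcl12 only in part. The endothelial mean was 10.01 in vesicle replicate 4, the lowest for Cxcl12, against 9.01 in replicate 2. The podocyte mean was highest in replicate 5 at 8.91. Replicate 3 was the highest vesicle for the endothelial genes Pecam1 and Cdh5, at 8.02 and 9.53, while endothelial Kdr was highest in replicate 4, at 11.98. The macrophage gene Csf1r was highest in replicate 3, at 13.94, and the leukocyte gene Ptprc in replicate 2, at 7.83. The part of these markers in the vesicle values was not tested.

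The ureteric bud, at 11.01 ± 0.16 (SD, n = 4), had 4.22-fold less Cxcl12 signal than the mesenchyme, at 13.08 ± 0.64 (SD, n = 8). The log2 difference was -2.08 (SE 0.54, adjusted p = 0.00875), and 8.15% of all genes were called in this comparison. The mesenchyme arrays themselves fell into 2 sets by the way of obtaining tissue in their titles. The 3 arrays titled laser capture were at 13.96, 13.57 and 13.50, and the 4 titled dissection or collagenase were at 12.52, 12.63, 12.88 and 12.11. The dissected arrays were thus all lower than the captured ones. Against the dissected mesenchyme alone, which matches the bud's own titles, Cxcl12 was at -1.53 (SE 0.63, adjusted p = 0.177) and not called, and against the captured mesenchyme alone it was at -2.67 (SE 0.69, adjusted p = 0.0189). The only bud and mesenchyme arrays that share a title date differed by -1.47. The renal vesicle, at 10.58 ± 1.30 (SD, n = 5), was 5.66-fold below the mesenchyme, a log2 difference of -2.50 (SE 0.50, adjusted p = 8.14e-04), in a comparison that called 11.9% of genes. This fall was called against the dissected arrays alone (-1.95, adjusted p = 0.0276) and against the captured arrays alone (-3.09, adjusted p = 0.00973).

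At day E15.5 the corpuscle stood out. Its arrays were at 14.96, 13.84, 15.08 and 12.68, and the S-shaped bodies at 13.23, 11.53, 14.74 and 12.74. The high S-shaped body and the low corpuscle were the 2 libraries whose markers went against their labels. The proximal tubules were at 12.38 and 11.46, the ureteric tips at 12.32, 10.79 and 11.67, and the collecting ducts at 12.43, 9.93 and 12.19. These 8 arrays all lay below the lowest corpuscle, 12.68. The interstitium was at 14.17, 13.15, 13.29 and 13.21, within the full corpuscle range. Without corpuscle replicate 4, one of these libraries, that range began at 13.84, above every interstitium array but replicate 1. Cxcl12 rose by 1.83 in the corpuscle, at 14.14 ± 1.12 (SD, n = 4), against the mean of the other 5 components (SE 0.49, adjusted p = 0.0220, with 5.4% of genes called). Without the 2 libraries the rise was 2.43 (SE 0.50, adjusted p = 0.00189). The call was lost without corpuscle replicate 1 (1.56, adjusted p = 0.106) or replicate 3 (1.52, adjusted p = 0.129). The mean of 11 endothelial markers was 10.45 to 12.46 in the corpuscle, overlapping the S-shaped body at 10.19 to 11.94 and the interstitium at 9.78 to 10.49. It was 8.14 to 8.85 in the tip, the lowest of the day. Of the 6 podocyte markers, 4 to 6 were above the pooled median in a corpuscle, and 5 to 6 in an S-shaped body. The part of these cells in the Cxcl12 level was not tested.

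Cxcl12 also rose by 2.48 from the renal vesicle to the S-shaped body (SE 0.59, adjusted p = 0.0107, with 4.99% of genes called). The ranges overlapped, and without S-shaped body replicate 3 the difference was 1.91 (adjusted p = 0.0867) and not called. Without both libraries it was 1.91 (adjusted p = 0.0592) and again not called. The interstitium, at 13.46 ± 0.48 (SD, n = 4), was above all 3 collecting ducts, at 11.52 ± 1.38 (SD, n = 3). That difference of 1.94 (SE 0.67, adjusted p = 0.0992) was not called with all arrays and was called without the 2 libraries (adjusted p = 0.0462). In the order of component means, corpuscle, interstitium, mesenchyme, S-shaped body, proximal tubule, tip, collecting duct, bud and vesicle, each of the 8 neighbouring pairs overlapped and differed by less than the larger SD.

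The second Cxcl12 probe set gave another picture between days. On 1417574_at the mesenchyme ranged from 12.55 to 14.15 with a median of 13.79, and the interstitium was at 12.78, 11.07, 10.90 and 10.73. Only interstitium replicate 1 reached into the mesenchyme range. The order of component means changed as well. The mesenchyme was highest at 13.65, ahead of the corpuscle at 12.93, and the interstitium at 11.37 lay below the bud at 11.74. The collecting duct, tip and proximal tubule were lowest, at 9.86, 10.06 and 10.14. The interstitium was lower than the mesenchyme on this probe set, with a log2 difference of -2.28 (SE 0.56, adjusted p = 0.00502 over all probe sets). The main probe set gave a difference of 0.37 (SE 0.54, 95% interval -0.72 to 1.46, adjusted p = 0.707, with 11.48% of genes called), which turned to -0.12 under median scaling in place of quantile normalization. The gap between the 2 probe sets within an array was -0.56 ± 0.31 in the mesenchyme (SD, n = 8), -0.73 ± 0.17 in the bud (SD, n = 4), 1.22 ± 0.22 in the corpuscle (SD, n = 4) and 2.09 ± 0.49 in the interstitium (SD, n = 4). It was 1.53 to 1.77 on average in the tip, duct and proximal tubule. Its component means were below 0 at days E11.5 and E12.5 and above 0 at day E15.5, but single arrays overlapped: the vesicles ran from -1.37 to 0.70, around a mean of -0.34, and the S-shaped bodies from -0.37 to 1.19, around 0.48. A control for RNA integrity also differed between components, though not by day alone. The 5' minus 3' difference of the Actb control was -3.83 ± 0.36 in the mesenchyme (SD, n = 8) and -1.95 ± 0.65 in the interstitium (SD, n = 4). In the proximal tubule, of the same day as the interstitium, it was -3.70 ± 0.98 (SD, n = 2), at the level of the mesenchyme. The same difference of the Gapdh control was -4.78 ± 0.78 and -4.35 ± 0.74. Its part in the gap was not tested. Both probe sets called Cxcl12 lower in bud and vesicle than in mesenchyme, at -1.91 (adjusted p = 0.0323) and -2.72 (adjusted p = 5.92e-04) on the second set, and both called it higher in the corpuscle, at 2.12 (adjusted p = 0.0129). The S-shaped body against vesicle difference was 1.65 on the second set (adjusted p = 0.106). The second set alone called Cxcl12 lower in the proximal tubule than in the S-shaped body, at -2.44 (adjusted p = 0.0426). On the main set that tubule difference was -1.14 (adjusted p = 0.367), and -0.58 without the 2 libraries (adjusted p = 0.652). The third set, 1439084_at, was above the pooled median in only 3 of 37 arrays, and called none of these.

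**Figure D2:**
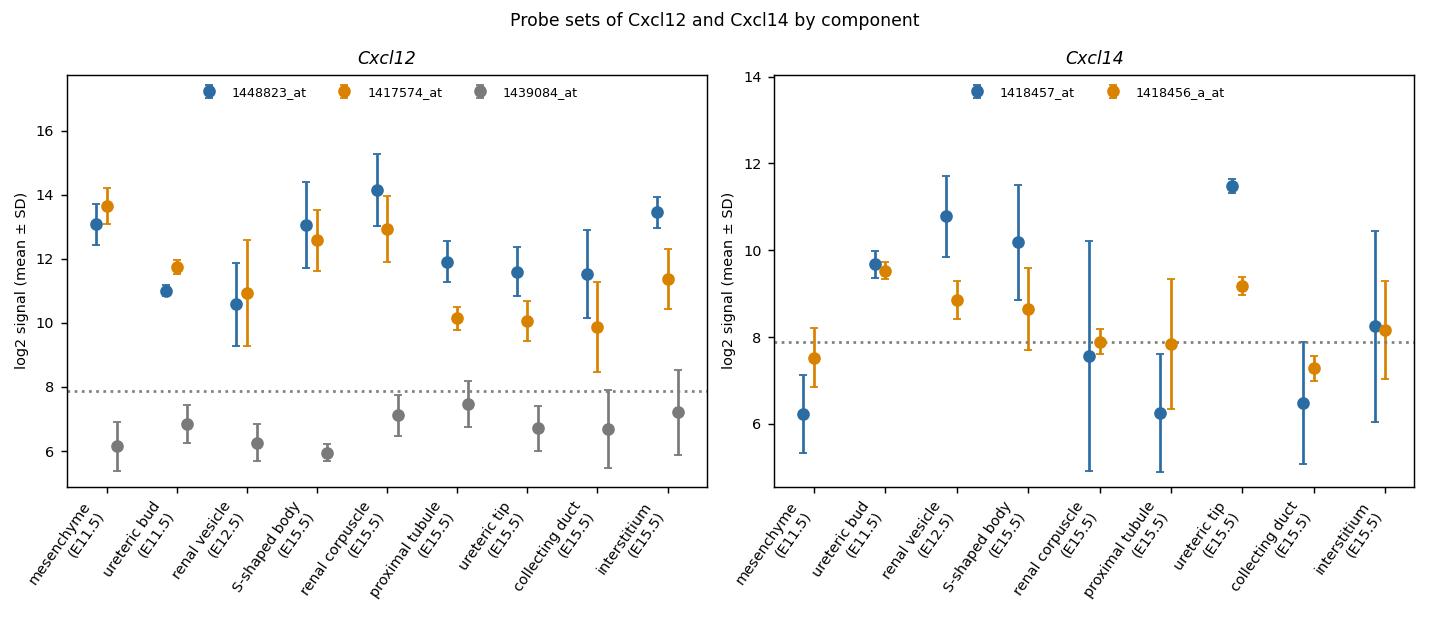
Mean log2 signal (vertical axis, bars SD) of the 3 probe sets of Cxcl12 and the 2 of Cxcl14 by component, with the pooled median of 7.89 dotted. In the component means the blue Cxcl12 set lies below the orange one at days E11.5 and E12.5 and above it at day E15.5, with a gap of -0.56 in the mesenchyme and 2.09 in the interstitium, and the third set stays near or under the dotted line. The 2 Cxcl14 sets share high values in bud, vesicle and tip, and the orange set spans a narrower range.

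Cxcl14 was high in the ureteric tip and bud, the renal vesicle and most S-shaped bodies, and was called higher in the bud and vesicle than in the mesenchyme on both probe sets. On its main probe set (1418457_at) the tips were at 11.34, 11.43 and 11.65, close together, and the collecting ducts at 8.07, 5.99 and 5.40. All tips lay above all ducts by over 3 log2 units. The mean of 8 ureteric markers was 12.97 to 13.44 in the tips and lower in each duct, from 12.07 upward. Cxcl14 was higher in the tip, with a log2 difference of 4.99 (SE 1.07, adjusted p = 0.0218), where 0.356% of genes were called. Duct replicates 2 and 3 lay below the pooled median, with deposited signals of 38.9 and 12.2 against the offset of 34.62, so the offset sets the size of this difference in part and no fold is given. The tip and duct arrays that share a title date differed by 6.03 on one date and by 5.66 on the other. The call was lost when any one of 5 of the 6 arrays was left out, with differences of 4.44 to 5.05, and was kept without duct replicate 1, at 5.78. The adjusted p was 0.00391 without the 2 libraries of other markers, which are in neither component. On the second probe set (1418456_a_at) the tips were at 9.28, 8.93 and 9.31 and the ducts at 7.42, 7.48 and 6.95, again without overlap. The difference there was 1.89 (SE 0.59, adjusted p = 0.328) and not called.

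Against the mean of the 5 others of its day the tip was 3.72 higher in Cxcl14 (SE 0.82, adjusted p = 0.0140, with 1.6% of genes called). Leaving out any one tip array ended this call (3.64 to 3.79, adjusted p = 0.0775 to 0.137), and on the second probe set the difference was 1.21 (adjusted p = 0.184). Without the 2 libraries of other markers it was 3.83 (adjusted p = 0.00208). The earlier bud also had Cxcl14 signal. Its arrays were at 9.87, 9.74, 9.23 and 9.88, whereas the mesenchyme ranged from 5.28 to 7.50 with a median of 6.21, below the pooled median in all 8 arrays. The bud was 3.44 higher on the log2 scale (SE 0.80, adjusted p = 0.00314). In the mesenchyme the captured arrays were at 7.49, 6.46 and 6.16 and the dissected ones at 5.35, 5.28, 5.39 and 6.25, and their ureteric marker means were 9.10 to 10.64 and 7.71 to 8.13. The part of ureteric tissue in these levels was not tested. Against the captured mesenchyme alone the bud was 2.97 higher and not called (adjusted p = 0.112), and against the dissected mesenchyme alone 4.11 higher (adjusted p = 0.00433). The second probe set called it too, at 2.003 (SE 0.44, adjusted p = 0.00231). From bud to tip the probe sets went opposite ways: 1.79 on the main set (SE 1.00, adjusted p = 0.343) and -0.36 on the second (SE 0.55, adjusted p = 0.768), neither called.

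In the nephron line Cxcl14 was above the pooled median in every vesicle and S-shaped body, in 2 of 4 corpuscles and in neither proximal tubule. The vesicles were at 9.39, 10.81, 11.93, 11.16 and 10.62, all above every mesenchyme array. Their mean of 10.78 ± 0.93 (SD, n = 5) was 4.54 above the mesenchyme (SE 0.75, adjusted p = 7.86e-05). The rise was called against captured mesenchyme (4.08, adjusted p = 0.0233), against dissected mesenchyme (5.21, adjusted p = 2.08e-04) and on the second probe set, where it was 1.33 (SE 0.41, adjusted p = 0.0286). The S-shaped bodies were at 11.47, 10.63, 8.35 and 10.31, the lowest being replicate 3, one of the libraries with other markers. They were at -0.59 against the vesicle (SE 0.88, 95% interval -2.38 to 1.19, adjusted p = 0.773), and at 0.0203 without the 2 libraries (adjusted p = 0.996). The proximal tubules, at 5.29 and 7.22, lay below all S-shaped bodies and below the pooled median, with deposited signals of 6.15 and 120.01, so that the offset limits this difference. Cxcl14 was lower in the tubule, with a log2 difference of -3.93 (SE 1.13, adjusted p = 0.0209, with 9.91% of genes called). This call was lost without tubule replicate 1 (-2.97, adjusted p = 0.243), without S-shaped body replicate 1 (-3.50, adjusted p = 0.0597) and on the second probe set (-0.82, adjusted p = 0.448). Without the 2 libraries it was -4.55 (adjusted p = 0.00172).

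Cxcl14 was unevenly spread in the interstitium, at 10.66, 8.64, 5.34 and 8.36. Replicates 1 and 2, the 2 highest, also had the most ureteric marker signal, with means of 12.10 and 10.68 over 8 genes against 9.49 and 8.98, and Ret at 12.77 and 12.23 against 5.48 and 6.41. Replicates 2 and 4 differed little in Cxcl14. On the second probe set the 4 arrays were at 8.18, 7.23, 7.51 and 9.75, where replicate 4, with the least ureteric signal, was highest and replicate 2 lowest. The part of ureteric tissue in these levels was not tested either. The difference from the mesenchyme was 2.01 (SE 0.80, adjusted p = 0.0908), not called with all arrays, and called without the 2 libraries noted above (adjusted p = 0.0347). The order of component means was tip, vesicle, S-shaped body, bud, interstitium, corpuscle, collecting duct, proximal tubule and mesenchyme, and each of the 8 neighbouring pairs overlapped. On the second probe set the bud was highest, at 9.53 ± 0.19 (SD, n = 4), ahead of the tip at 9.17 ± 0.21 (SD, n = 3) and the vesicle at 8.86 ± 0.43 (SD, n = 5).

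Cxcr4, the signalling receptor (1448710_at), was highest on average in the ureteric bud and lowest in the collecting duct. The bud arrays were at 11.06, 10.96, 11.24 and 10.86, and the mesenchyme ranged from 8.62 to 10.48 with a median of 9.85. All bud arrays lay above all mesenchyme arrays. The difference was 1.43 (SE 0.62, 95% interval 0.17 to 2.70, adjusted p = 0.200) and was not called in the fit over all components. It was called when only these 12 arrays were fitted (SE 0.33, adjusted p = 0.00496), and the SD was 0.16 in the bud and 0.68 in the mesenchyme. The tips were at 10.28, 10.00 and 10.87 and the collecting ducts at 9.05, 6.78 and 7.05, so that tip and duct did not overlap. The difference of 2.76 (SE 0.83, 95% interval 1.07 to 4.45, adjusted p = 0.233) was not called. Arrays of one title date differed by 2.95 on one date and 4.09 on the other.

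The collecting duct had 5.35-fold less Cxcr4 signal than the mean of the other 5 components of its day, a log2 difference of -2.42 (SE 0.64, adjusted p = 0.0372, with 1.9% of genes called). Without the 2 libraries it was -2.47 (adjusted p = 0.00771). This call was lost without duct replicate 2 (adjusted p = 0.478), duct replicate 3 (-2.13, adjusted p = 0.281) or tip replicate 3 (-2.37, adjusted p = 0.051). Collecting duct replicate 1, the highest duct for both Cxcr4 and Cxcl14, also had the highest mean of 8 interstitium markers among the ducts, 12.74 against 10.76 and 11.90. The other components were mixed. Vesicles were at 8.27, 8.89, 10.17, 8.12 and 10.32, S-shaped bodies at 9.13, 8.41, 11.13 and 9.45, and corpuscles at 11.10, 11.16, 10.56 and 7.78. The high S-shaped body and low corpuscle were again the 2 libraries with other markers. The proximal tubules were at 10.07 and 11.02, within the full corpuscle range. Without corpuscle replicate 4 that range began at 10.56, above the tubule at 10.07.

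For Cxcr4 the interstitium arrays fell into a high and a low pair. Replicates 1 and 2 were at 11.25 and 10.90, at the level of the bud, and replicates 3 and 4 at 7.70 and 8.62. The high pair was the one with Ret and other ureteric markers. Interstitium and duct therefore overlapped, and the difference of 1.99 (SE 0.78, adjusted p = 0.164, with 4.46% of genes called) was not called. The endothelial markers of the interstitium, by contrast, spanned only 9.78 to 10.49. Macrophage markers, a mean of 9 genes, were higher in the pair with low Cxcr4, at 10.60 and 10.46, than in the pair with high Cxcr4, at 9.48 and 9.76. The part of these cells in the split was not tested. In the order of Cxcr4 means, bud, proximal tubule, tip, corpuscle, interstitium, mesenchyme, S-shaped body, vesicle and duct, all 8 neighbouring pairs overlapped, and only vesicle and duct differed by more than the larger SD.

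Ackr3, the scavenging receptor (1417625_s_at), was strong in every array and highest in the corpuscle. Corpuscles were at 16.02, 15.54, 16.37 and 14.16, and S-shaped bodies at 14.72, 14.16, 15.97 and 14.41. The lowest corpuscle and the highest S-shaped body were the 2 libraries with other markers. The collecting ducts were at 14.86, 15.26 and 15.15, the tips at 14.88, 14.98 and 14.44, and the interstitium at 13.36, 14.03, 13.98 and 13.38. The proximal tubules, at 13.36 and 12.48, were the lowest of the day. Ackr3 rose by 1.26 in the corpuscle against the other 5 components (SE 0.32, adjusted p = 0.0132), and by 1.796 without the 2 libraries (SE 0.29, adjusted p = 8.91e-05). The call was lost without corpuscle replicate 1 (1.10, adjusted p = 0.072) or replicate 3 (0.98, adjusted p = 0.112). Cxcl12 and its scavenging receptor were thus both called higher in this component. Cxcr4 was at 0.61 (SE 0.57, adjusted p = 0.587), and at 1.504 without the 2 libraries (SE 0.55, adjusted p = 0.0913), not called either way. These probe sets were read on the same arrays.

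Ackr3 was lower in the proximal tubule, at 12.92 ± 0.62 (SD, n = 2), than in the mean of the other 5 components, with a log2 difference of -1.86 (SE 0.42, adjusted p = 0.00175, and 15.2% of genes called). Against the S-shaped body it was at -1.90 (SE 0.49, adjusted p = 0.00896). Both calls were lost without tubule replicate 2, at -1.42 (adjusted p = 0.0961) and -1.46 (adjusted p = 0.133). Without the libraries S-shaped body 3 and corpuscle 4 they were -1.87 (adjusted p = 1.24e-04) and -1.51 (adjusted p = 0.0120). The 2 tubule pools differed in other tissue. Replicate 2 had Ret at 11.33, the progenitor gene Six2 at 13.09 and the stromal gene Foxd1 at 13.38, against 5.41, 8.52 and 7.37 in replicate 1, and it had the lower Ackr3. Replicate 1 was the higher one for the podocalyxin gene Podxl, at 14.17 against 11.03, for the endothelial gene Kdr, at 11.66 against 9.37, and for the leukocyte gene Ptprc, at 9.77 against 5.52, so that other tissue differed in both directions. Its part in the Ackr3 levels was not tested.

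Along the collecting system Ackr3 and Cxcl14 differed in pattern. The buds were at 13.72, 13.40, 12.87 and 13.28 for Ackr3, below all 3 tips. The tip was 1.45 higher (SE 0.43, adjusted p = 0.0432, with 4.25% of genes called). This call was lost when any one of the 7 arrays was left out (1.30 to 1.61), and with median scaling in place of quantile normalization the difference was 0.19, where the median over all genes was -0.88 in place of -0.22. Tip and duct overlapped for Ackr3, at -0.32 (SE 0.46, 95% interval -1.25 to 0.61, adjusted p = 1). The interstitium was below all 3 ducts, by a log2 difference of -1.40 (SE 0.43, adjusted p = 0.0517), which was not called with all arrays and was called without the 2 libraries (adjusted p = 0.00988). The early components differed little: the mesenchyme ranged from 12.72 to 14.03 with a median of 13.34, overlapping the bud, and the vesicles were at 13.95, 14.33, 12.71, 12.72 and 14.12. From vesicle to S-shaped body Ackr3 rose by 1.25 (SE 0.38, adjusted p = 0.0448), and without S-shaped body replicate 3 by 0.86 (adjusted p = 0.267), not called. Without both libraries the rise was 0.86 (adjusted p = 0.159), again not called. The call with all arrays was also lost without S-shaped body replicate 1 or vesicle replicate 1, 3 or 4 (1.03 to 1.34). In the order of means, corpuscle, duct, S-shaped body, tip, interstitium, vesicle, mesenchyme, bud and proximal tubule, only tip and interstitium did not overlap.

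**Figure D3:**
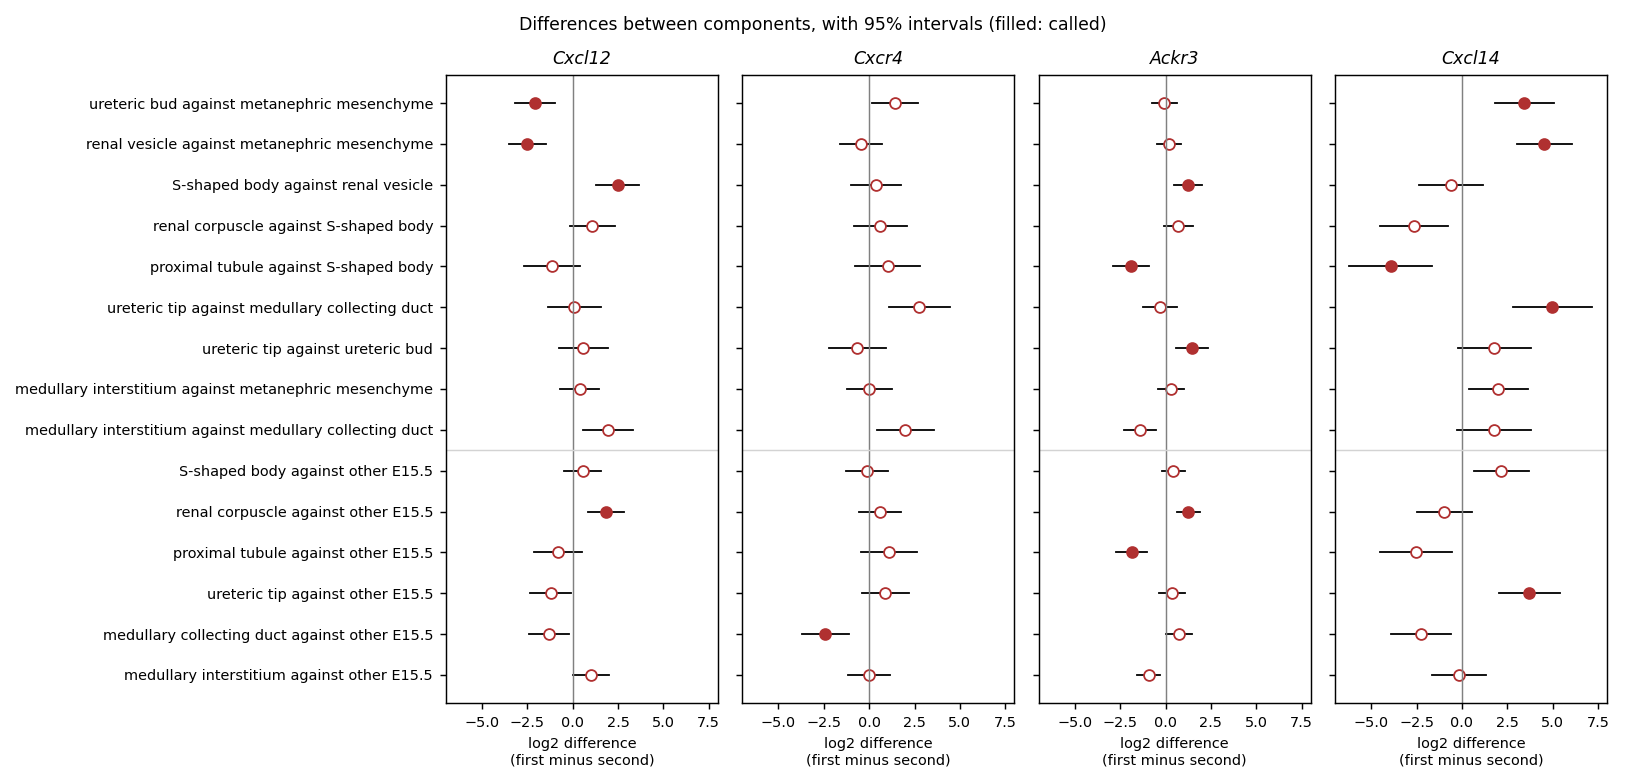
Log2 differences (horizontal axis, first component minus second) of the 4 genes in the 15 comparisons, with 95% intervals. Filled points were called at an adjusted p under 0.05 and a size of at least 1. Calls lie on both sides of 0, with Cxcl14 at 4.99 for the tip against the duct and Cxcl12 at -2.50 for the vesicle against the mesenchyme.

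The step from S-shaped body to renal corpuscle depended on the 2 libraries for all 4 genes. With all arrays limma called none, and 1 of 4 had an unadjusted p under 0.05, while 0.579% of genes were called. Cxcl12 was at 1.08 (SE 0.62, adjusted p = 0.463), Cxcr4 at 0.62 (SE 0.72, adjusted p = 0.770), Ackr3 at 0.70 (SE 0.40, adjusted p = 0.458) and Cxcl14 at -2.62 (SE 0.93, adjusted p = 0.179). Cxcl14 was at 5.37, 8.25, 5.61 and 11.04 in the corpuscles, and the array at 11.04 was replicate 4, whose podocyte mean was that of an S-shaped body. Without both libraries 4.11% of genes were called, among them Cxcl12 at 2.13 (SE 0.64, adjusted p = 0.0497), Ackr3 at 1.54 (SE 0.37, adjusted p = 0.0123) and Cxcl14 at -4.39 (SE 0.89, adjusted p = 0.00283). Cxcr4 was then at 1.94 (SE 0.71, adjusted p = 0.115). In the 3 remaining arrays of each component the ranges of all 4 genes were apart. The share of all genes with ranges apart is not given, so this count says nothing particular about the 4. Leaving out corpuscle replicate 4 alone sufficed for the Cxcl14 call (-3.78, adjusted p = 0.0175). The 2 libraries had been found by their markers in the same arrays, so these values describe the arrays and do not show that labels were exchanged.

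**Figure D4:**
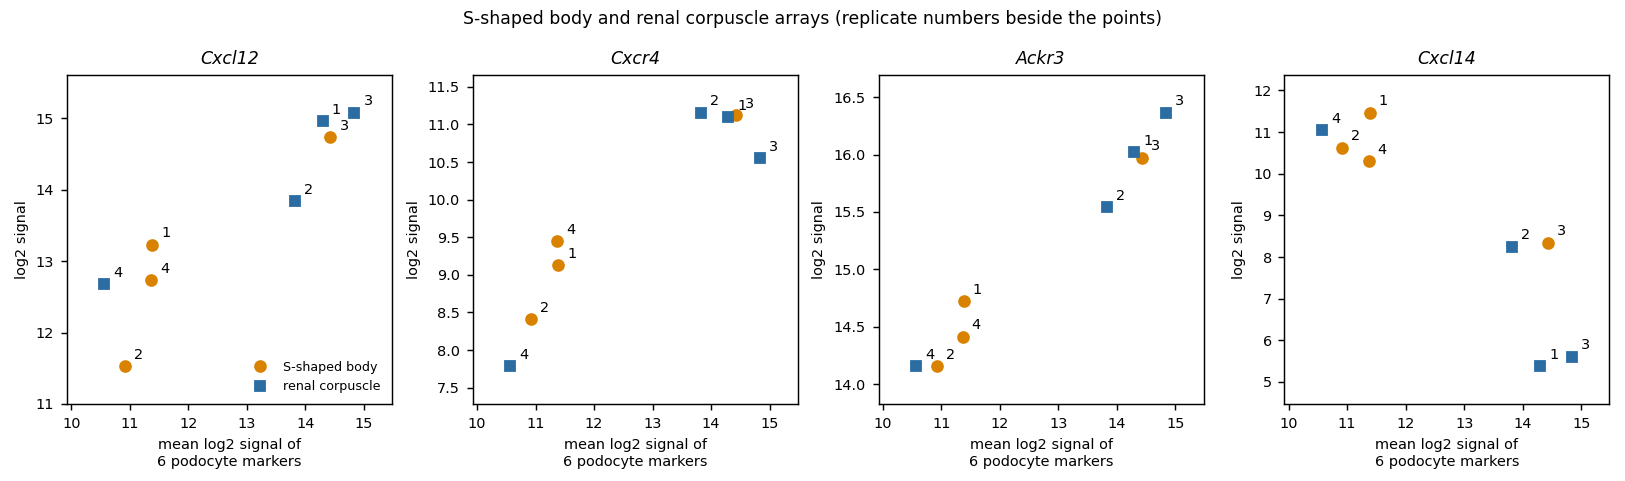
Log2 signal of each gene (vertical axis) against the mean log2 signal of 6 podocyte markers (horizontal axis) in 4 S-shaped body and 4 renal corpuscle arrays, with replicate numbers. S-shaped body 3 (podocyte mean 14.43) lies among the corpuscles and corpuscle 4 (10.57) among the S-shaped bodies, with high Cxcl12, Cxcr4 and Ackr3 and low Cxcl14 on the right.

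Of the remaining comparisons, limma called none of the 4 genes for the S-shaped body (1.46% of genes called, and 1 of the 4 at an unadjusted p under 0.05) or the interstitium (6.11% called, and 2 of the 4) against the rest of day E15.5. Cxcl14 was 2.18 higher in the S-shaped body (SE 0.74, adjusted p = 0.151), and 3.03 higher and called without the 2 libraries (adjusted p = 0.00844). In the interstitium Cxcl12 was 1.01 higher (SE 0.49, adjusted p = 0.242), and 1.02 without the 2 libraries (adjusted p = 0.160). Ackr3 was at -0.93 there (SE 0.32, adjusted p = 0.0670), and at -0.95 without them (adjusted p = 0.0163), which is under the size needed for a call. Cxcl14 was at -2.54 in the proximal tubule (SE 0.98, adjusted p = 0.0727) and at -2.26 in the collecting duct (SE 0.82, adjusted p = 0.190), and without the 2 libraries the first was called (-2.43, adjusted p = 0.0331) and the second was not (-2.15, adjusted p = 0.0929). In the corpuscle Cxcl14 was at -0.96 (SE 0.74, adjusted p = 0.485), and at -2.24 and called without them (adjusted p = 0.0386).

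Other chemokines were described from a list of 34 ligands and 21 receptors, of which 25 and 12 were measured. By the F-test 11 ligands and 2 receptors differed between components, against 49.9% of all genes. In the bud 4 of 25 ligands fell against the mesenchyme and none rose, where 8.15% of all genes were called, with a median over the list of -0.55 against 0.02 over all genes. The platelet chemokine gene Pf4 fell by 2.67, Ppbp, another one, fell by 2.45, and Ccl9 fell by 2.36. The mean of 9 macrophage markers was 7.36 to 7.47 in the bud and 8.54 to 9.81 in the mesenchyme, and its part in these falls was not tested. In the vesicle 6 ligands fell and Ccl17 rose, by 1.53, where 11.9% of all genes were called. In the interstitium against the mesenchyme, with 11.48% of all genes called, Ppbp fell by 3.36 and Pf4 rose by 1.71, and the receptor gene Cx3cr1, itself one of the macrophage markers, rose by 3.25. In the proximal tubule against the rest of its day 3 of 12 receptors rose, where 15.2% of all genes were called. They were the atypical receptor genes Ackr4, by 1.85 (SE 0.51, adjusted p = 0.0101), and Ackr2, by 1.15, and Cxcr3, by 1.14. In the interstitium Pf4 and Cx3cr1 rose against the duct and against the rest of the day. In the 3 nephron steps from vesicle to S-shaped body, from there to corpuscle and to proximal tubule, and from duct or bud to tip, limma called none of these ligands or receptors. The shares over all genes there were 4.99%, 0.579%, 9.91%, 0.356% and 4.25%, so counts of 0 say little about these lists. Between 1 and 3 ligands and between 0 and 4 receptors had an unadjusted p under 0.05 in each of these 5 comparisons. No share of all genes at that threshold is given, so these counts say little about the lists. Leaving out the 2 libraries, an alternative added for the lists after seeing the data, made a call of Ccl6 for tip against bud, at 1.60 (adjusted p = 0.0463).

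Genes known to act with the axis were described from a list of 29, of which 26 were measured. By the F-test 21 of these differed, against 49.9% of all genes. Dpp4, a peptidase that inactivates Cxcl12, rose by 4.75 in the bud (SE 0.87, adjusted p = 1.73e-04) and by 3.21 in the vesicle against the mesenchyme. In the interstitium Dpp4 was lower than in the rest of its day (log2 difference -4.55, SE 0.80, adjusted p = 2.99e-04). Calcrl and Ramp2, which form the receptor of adrenomedullin, fell by 3.80 and 2.27 in the bud. In the corpuscle 3 of 26 partners rose and 2 fell, where 5.4% of all genes were called: Adm, which encodes adrenomedullin, another ligand of Ackr3, rose by 3.19 (SE 0.72, adjusted p = 0.00590), Mmp9 by 1.53 and Ramp2 by 1.34, while the receptor kinase genes Grk5 and Grk3 fell by 1.67 and 1.30. When the 2 libraries were left out 6 rose and none fell, where 7.16% of all genes were called. Adm then rose by 4.49 (SE 0.66, adjusted p = 3.22e-05) and Dpp4 by 3.19 (SE 0.80, adjusted p = 0.0110), while Grk5 was at -1.05 (adjusted p = 0.259) and Grk3 at -1.08 (adjusted p = 0.120). Ramp2, Grk3 and the values without the 2 libraries were chosen after the data were seen. Rac1, a small GTPase of cell movement, rose by 1.95 from vesicle to S-shaped body (1.80 without the 2 libraries), and Cd74, a receptor partner of Cxcr4 for the cytokine Mif, rose by 2.25 from S-shaped body to proximal tubule (2.34 without them). limma called none of the 26 between tip and duct, tip and bud, or corpuscle and S-shaped body, where 1, 5 and 4 had an unadjusted p under 0.05. The shares of all genes called were 0.356%, 4.25% and 0.579% there, so counts of 0 say nothing particular about the partners. No share of all genes at an unadjusted p under 0.05 is given, so those counts say little either. Adm was called between corpuscle and S-shaped body when the 2 libraries were left out, at 3.76 (adjusted p = 0.00833).

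The genes most like each member were ranked by Pearson correlation over the 9 component means among 6179 genes whose means spanned at least 2 log2 units. For Cxcl12 they were Unc45b (r = 0.961), Cd300a (0.939), the podocyte marker Synpo (0.936), Gsdmd (0.933) and Gimap6 (0.930). For Cxcr4 they were Tango6 (r = 0.847), Car2 (0.844), Metrn (0.820), Socs2 (0.820) and Max (0.818). For Ackr3 they were Zfp397 (r = 0.934), Cblb (0.926), Cited2 (0.923), Nab1 (0.922) and Enpp4 (0.910), and for Cxcl14 Ccnd1 (r = 0.900), Crybb1 (0.865), Fjx1 (0.857), Lbr (0.840) and Rep15 (0.830). Over the 37 single arrays every one of these correlations was lower. There r ran from 0.513 to 0.862 (Synpo) for Cxcl12 and only from 0.092 (Max) to 0.464 (Metrn) for Cxcr4. It ran from 0.425 to 0.732 for Ackr3 and from 0.523 to 0.806 for Cxcl14. The 9 means come from the same arrays and from 2 to 8 of them each, so these values describe likeness of pattern only. Over the 9 means Cxcl12 had r = 0.06 with Cxcr4 and 0.36 with Ackr3, and Cxcl14 had r = -0.38 with Cxcl12.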

How the data were processed

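RNA of 37 pooled kidney samples was measured on 1 Affymetrix array each. The deposited values are signal intensities per probe set on a linear scale, which the authors made with GCOS, per the submitters' processing notes, in a version not given in the sources used here. The deposited arrays share a trimmed mean of 1500 (2% cut from each end), while their medians run from 127 to 334. An array gives no read depth, so the number of arrays limits the precision.

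From these intensities log2(signal + 34.62) was taken, where 34.62 is the 20th percentile of all values, and arrays were quantile normalized. The offset understates changes of weak genes. Of 45101 probe sets, 34945 name 1 gene in GEO's platform annotation, 932 several and 9160 none. Probe sets above the pooled median of 7.89 in at least 2 arrays were kept, and the one of highest mean stood for its gene, which left 15709 genes. limma 3.58.1 in R 4.3.3 fitted 1 mean per component over all 37 arrays (28 residual degrees of freedom) with a trended prior. P-values are two-sided and were Benjamini-Hochberg adjusted over all genes in each of 15 comparisons and in the moderated F-test. A component of day E15.5 was also compared with the mean of the other 5. The script was tested on simulated data.

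The 4 genes, the gene lists and the markers were chosen with earlier results of these data known. Named from a list were the 3 largest called differences of a comparison and 1 more, and for likeness the 5 highest correlations, leaving out clone names. Replicate numbers follow accession order and pair nothing. The numbers in the titles did not pair the samples: deviations from component means had a median correlation of 0.00688 over 99 pairs of arrays with 1 number and -0.0037 over 407 with different ones. Alternatives were other offsets, scalings, filters and probe sets, array weights, fits of the compared arrays only, title date and title number as blocks, the mesenchyme by title, and each array left out. The Actb control ratio as a covariate was added after seeing the data, and leaving out both libraries of other markers was planned from an earlier analysis of them.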

Additional observations from a re-analysis of the deposited data

Results flagged for a closer look

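Cxcl12 in medullary interstitium replicate 1 was at 14.17 on the log2 scale, with the other 3 interstitium arrays between 13.15 and 13.29. Its gap to the nearest array was 0.859 of the whole range of the 4. The same array had the highest mean of 8 ureteric markers among the 4, 12.10, with Ret at 12.77. Cxcl12 itself averaged 11.59 in the tip, 11.52 in the collecting duct and 11.01 in the bud, below all 4 interstitium arrays. The part of ureteric tissue in the value was not tested. Of 24 groups of 4 to 10 arrays examined for the 4 genes, 1 passed the limit, and chance passes about 1 in 20.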

How the results depend on the processing

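Counts are of the 4 genes called, with the count of the report in parentheses. For most settings the share of all genes called is not given beside the count, and that share moved between settings too. A changed count therefore says nothing particular about the 4 genes. For S-shaped body against vesicle (2) the count was 1 with array weights, median scaling, no filter, the probe set of largest variance, the replicate block by title number or title date as a random block, and 0 with the Actb ratio as a covariate, with only the arrays compared or without both libraries of other markers. For tip against bud (1) it was 2 with array weights or only the arrays compared, and 0 with the Actb covariate, median scaling, no filter or title date as a fixed term. The fixed date term, which left 24 arrays and 8 residual degrees of freedom and could not be fitted for the 2 vesicle comparisons, gave 0 for bud against mesenchyme (2), tubule against S-shaped body (2), tip against duct (1), and the corpuscle (2), tubule (1), tip (1) and duct (1) against the rest of their day. Array weights gave 0 for both tubule comparisons, 1 for the corpuscle, 1 for the S-shaped body (0) against the rest, 3 for interstitium against duct (0), and 2 for tip against duct, tip against the rest and duct against the rest. Only the arrays compared gave 0 for tubule against S-shaped body, tip and duct against the rest, and 1 for the corpuscle and for interstitium against duct. The lower offset gave 1 for tubule against S-shaped body and 0 for both Cxcl14 comparisons of the tip at day E15.5, since the second Cxcl14 probe set then had the higher mean. The higher offset and the stricter filter each gave 1 for interstitium against duct. Either kind of mesenchyme alone gave 1 for bud against mesenchyme, and the largest-variance probe set gave 1 for interstitium against mesenchyme (0). The Actb covariate gave 0 for the duct and 2 for the tubule against the rest. Without both libraries the count was 3 for corpuscle against S-shaped body (0), 2 for interstitium against duct and for the tubule against the rest, and 1 for interstitium against mesenchyme and for the S-shaped body against the rest. The shares of all genes called there were 4.11%, 5.8%, 17.7%, 13.7% and 2.83% in the same order.

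The replicate block by title number, fitted on 34 arrays, gave 1 for interstitium against duct, the interstitium against the rest (0) and corpuscle against S-shaped body, and 2 for the tubule against the rest. Apart from S-shaped body against vesicle, it changed the count of no other comparison by over 1.5 times. Over all genes it called 315 in place of 91 for corpuscle against S-shaped body and 1078 in place of 1862 for vesicle against mesenchyme. The numbers did not pair the samples.

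With 1 array left out, the counts ran from 0 to 2 for S-shaped body against vesicle and for the corpuscle and tubule against the rest, from 1 to 2 for tubule against S-shaped body, and from 0 to 1 for tip against duct, interstitium against mesenchyme, corpuscle against S-shaped body, and the tip, duct, interstitium and S-shaped body against the rest. Tip against bud was at 0 without any 1 of its 7 arrays.

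Some differences changed sign. Cxcl12 in interstitium against mesenchyme was -0.12 with median scaling, -0.22 against captured mesenchyme, and -2.28 on the second probe set, which also has the largest variance. On the third, weak probe set Cxcl12 was 0.12 for vesicle and 0.69 for bud against mesenchyme, and -0.31 for S-shaped body against vesicle. Cxcl14 in S-shaped body against vesicle was 1.10 with the Actb covariate, and 0.0203 without both libraries. With 1 array left out it ran from -1.02 to 0.0203, the latter without S-shaped body replicate 3. Cxcl14 in tip against bud was -0.37 with the lower offset and -0.36 on the second probe set. The cause of these changes was not tested. Counts over all genes moved too: without both libraries 646 genes were called between corpuscle and S-shaped body in place of 91, and against captured mesenchyme alone 389 in place of 1862 for the vesicle, 735 in place of 1280 for the bud and 472 in place of 1804 for the interstitium. Array weights, only the arrays compared and the fixed date term moved the counts over all genes as well, for example from 667 to 3673, 2951 and 23 for tip against bud and from 56 to 1014, 37 and 9 for tip against duct. Median scaling called 4515 for tip against bud, and the Actb covariate 318 in place of 1804 for interstitium against mesenchyme and 156 in place of 784 for S-shaped body against vesicle.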
